A study of Homo sapiens with 9 samples.

Results

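Adrenal androgen synthesis and sulfation was followed through 7 genes, CYP17A1, CYB5A, POR, SULT2A1, PAPSS2, AKR1C3 and STS, taken by symbol and Ensembl identifier from the 60671 genes in the count files. All 7 were found, and all 7 passed the filter on low counts that left 14150 genes for testing. RNA was sequenced from H295R cells, an established human adrenocortical carcinoma line with steroid output, with poly-A selection and with no treatment given to the cells. The 9 libraries comprised 3 from cells labelled as SGPL1-overexpressing (OE), 3 from SGPL1-knockout cells (KO) and 3 from wild-type cells (WT), all of the same line and medium. The construct behind the OE label, the edit in the KO cells and the number of clones behind each group are not stated in the labels.

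The adrenal cortex makes androgens by passing pregnenolone through CYP17A1, a cytochrome P450 that first hydroxylates the steroid at carbon 17 and then cleaves its side chain to give dehydroepiandrosterone (DHEA). The enzyme takes its electrons from the flavoprotein POR, and cytochrome b5, encoded by CYB5A, favours the cleavage step. DHEA is sulfated by SULT2A1 with the donor PAPS, which PAPSS2 and its paralogue PAPSS1 make. STS removes the sulfate again, and AKR1C3 reduces androstenedione to testosterone. CYP17A1 and HSD3B2 both act on pregnenolone, which HSD3B2 turns towards progesterone. Other steps of HSD3B2 are not described here, so its level is not read as a shift away from androgens.

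Library totals ran from 8006873 to 10895080 counts. SGPL1, the gene the labels name, checked those labels: it had 98.1, 81.3 and 101.2 CPM (counts scaled to the TMM-adjusted library total) in libraries labelled OE, 47.2, 43.9 and 53.8 CPM in KO libraries, and 101.5, 83.4 and 98.1 CPM in WT libraries. Its counts were lower in KO than in WT (log2 fold change -0.97 ± 0.14 (SE), edgeR adjusted p = 0.000105). OE-labelled libraries and WT overlapped, with no higher SGPL1 count under that label (-0.01 ± 0.14, edgeR adjusted p = 0.966), so every direction given for those libraries rests on the label. The summed level of 10 adrenal cortex markers was 2224.6 to 2652.8 CPM in libraries labelled OE. It was 2148.5 to 2544.3 CPM in KO and 1695.5 to 1900.8 CPM in WT. The markers were NR5A1, STAR, CYP11A1, FDX1, MC2R, NR0B1, INHA, HSD3B2, CYP21A2 and MRAP. STAR, HSD3B2, CYP21A2, NR5A1 and NR0B1 are also reported below, so the sum is no measure of cell identity apart from them. The part of this sum in the differences below was not tested. Of 7 markers of the adrenal medulla, 6 were at 0 counts in all 9 libraries, and the 5 endothelial, 5 leukocyte and 5 hepatocyte markers each summed to at most 1.75 CPM in any library. The 6 fibroblast markers summed to 11.9 to 16.8 CPM in libraries labelled OE, 17.1 to 19.2 CPM in KO and 16.5 to 27.2 CPM in WT. In bulk RNA, fewer cells that express a gene and less of its RNA per cell cannot be told apart.

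The promoter windows of the genes that carried the differences are shown first, because SULT2A1 differed most and CYB5A was higher together with POR in the OE-labelled libraries. They come from RefSeq (GRCh38.p14), run 5′ to 3′ on the strand of the gene and span 250 bases before to 50 after the annotated start. Capitals mark a match to AGATAA or TGATAA, motifs bound by GATA factors, on either strand, so that TTATCA marks TGATAA on the opposite strand.
SULT2A1 (chr19:47886266-47886565, minus strand): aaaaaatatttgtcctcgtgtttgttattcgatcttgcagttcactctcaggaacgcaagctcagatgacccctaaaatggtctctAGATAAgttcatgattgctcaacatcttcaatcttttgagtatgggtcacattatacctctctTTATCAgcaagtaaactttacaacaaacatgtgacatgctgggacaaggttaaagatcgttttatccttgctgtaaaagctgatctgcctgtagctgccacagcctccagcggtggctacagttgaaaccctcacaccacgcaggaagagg
CYB5A (chr18:74291914-74292213, minus strand): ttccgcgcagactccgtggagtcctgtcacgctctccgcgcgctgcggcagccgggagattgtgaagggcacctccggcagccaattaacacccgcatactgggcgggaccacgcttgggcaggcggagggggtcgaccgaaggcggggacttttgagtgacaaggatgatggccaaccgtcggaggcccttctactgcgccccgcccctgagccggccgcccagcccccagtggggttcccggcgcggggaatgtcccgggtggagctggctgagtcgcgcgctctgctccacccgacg

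The SULT2A1 window held AGATAA starting at -164 from the annotated start and TGATAA, on the opposite strand, starting at -101, and these matches did not overlap. Either GATA motif was present in 16.6% of 27305 promoter windows of the same length. The CYB5A window held neither, and neither window held CAAGGTCA, a motif bound by NR5A1, which was in 1.33% of the windows. Only these exact letters were searched, so the search could not find variants of the motif. The match was not particular to SULT2A1, since the windows of CYP17A1 (AGATAA at -69), AKR1C3 (matches in both of its windows) and STS (3 matches in 1 of its 5 windows) also held a GATA motif, and none of these genes passed in any comparison. GC content was 42.7% in the SULT2A1 window and 69.7% in the CYB5A window. A window was found for 5 of the 7 genes, and POR and PAPSS2 are named only. A match to these letters is a description of the window and not a measured binding site.

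Of the 7 genes, SULT2A1 alone passed the test in the comparison of KO with WT, where it was higher, and CYB5A and POR alone passed it in the comparison of libraries labelled OE with WT, where both were higher. Between the libraries labelled OE and KO, SULT2A1 alone passed, and it was lower in the libraries labelled OE. CYP17A1, the enzyme at the head of the branch, passed the test in no comparison and had the smallest ratio of highest to lowest level over the 9 libraries. The test was the edgeR quasi-likelihood F test, with p adjusted over the 14150 genes and a threshold of 0.05. For KO against WT, 1 of 7 genes was higher and 0 were lower, where 9.16% of all genes tested were higher and 9.60% lower. For libraries labelled OE against WT, 2 of 7 were higher and 0 lower, where 9.65% of all genes were higher and 11% lower. With library totals as the only scaling, the share of higher among called genes in that comparison was 25.9%, against 46.7% here, and the median log2 fold change of all genes was -0.129. For libraries labelled OE against KO, 0 of 7 were higher and 1 was lower, where 19% and 20.6% of all genes were and 39.7% passed in either direction. Of all genes, 18.8% passed in KO against WT and 20.7% in libraries labelled OE against WT. These counts are near what such shares give for 7 genes, so they say nothing particular about the pathway as a group. The median log2 fold change over the 7 genes was 0.30 in KO against WT, 0.15 in libraries labelled OE against WT and 0.02 in libraries labelled OE against KO, while that of all genes was -0.01, -0.01 and 0.00. The comparisons share libraries, so their values are given side by side without a test of likeness.

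**Figure D1:**
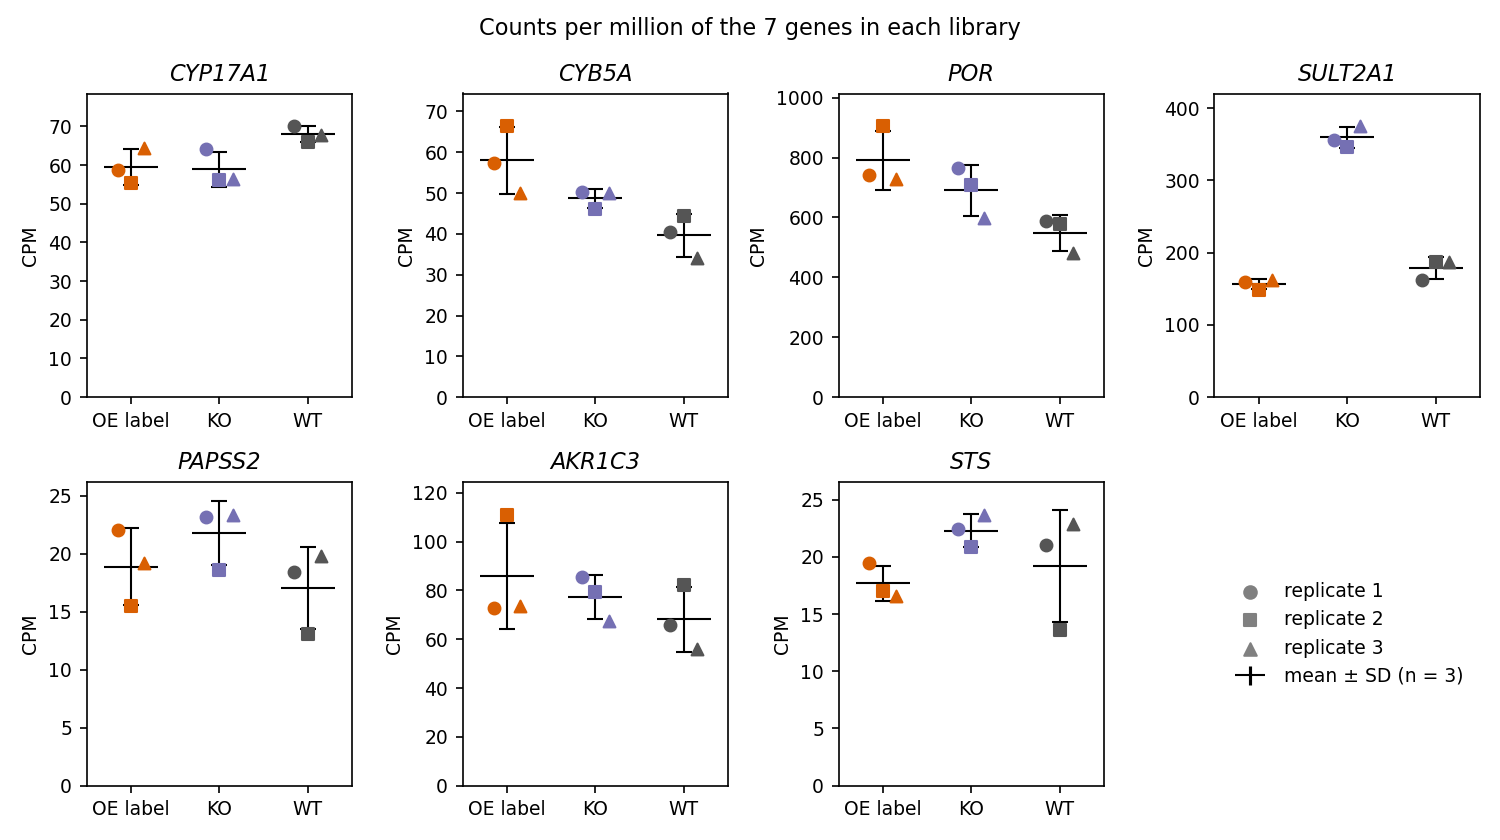
CPM of the 7 genes in each library (y axis from 0), with the libraries labelled OE on the left, KO in the middle and WT on the right of each panel; symbols stand for replicates 1 to 3, and bars for the mean ± SD (n = 3). The 3 KO libraries stand apart for SULT2A1, at 346.5 to 375.1 CPM, and the 3 libraries labelled OE lie above all WT libraries for CYB5A and POR.

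CYP17A1 (ENSG00000148795, chromosome 10, 102830531 to 102837472, minus strand, GRCh38) had 58.8, 55.3 and 64.3 CPM in libraries labelled OE, 64.1, 56.1 and 56.5 CPM in KO and 70.1, 66.1 and 67.9 CPM in WT. All 3 KO libraries and all 3 libraries labelled OE lay below the lowest WT library, by a small margin. The log2 fold change was -0.21 ± 0.13 in KO against WT (95% interval -0.48 to 0.06, edgeR adjusted p = 0.285) and -0.19 ± 0.13 in libraries labelled OE against WT (-0.46 to 0.07, edgeR adjusted p = 0.298). Groups that do not overlap were also seen for 35.2% of all genes in KO against WT, where 4 of the 7 genes showed it, and for 36.4% in libraries labelled OE against WT, where 3 did. Libraries labelled OE and KO overlapped for CYP17A1, with a log2 fold change of 0.02 ± 0.13 (-0.25 to 0.28), whose sign turned with library totals as the only scaling. Its level is understated here. Of its 3384 exon bases, 1417 (41.9%) are shared with WBP1L on the opposite strand, between 102830736 and 102834516, and reads there were not counted for either gene.

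POR (ENSG00000127948, chromosome 7, 75899200 to 75986855, plus strand), which passes electrons from NADPH to P450 enzymes of the endoplasmic reticulum, had 740.3, 905.1 and 727.3 CPM in libraries labelled OE, 765.1, 707.6 and 598.1 CPM in KO and 587.5, 577.9 and 480.0 CPM in WT. The lowest KO library and the lowest library labelled OE both lay above the highest WT library, KO replicate 3 by little. POR was 1.44-fold higher in libraries labelled OE than in WT (log2 fold change 0.53 ± 0.12, 95% interval 0.26 to 0.79, edgeR adjusted p = 0.00826). That call held in all 20 alternatives, narrowly without WT replicate 3 (0.44, edgeR adjusted p = 0.0499). In KO against WT the POR log2 fold change was 0.33 ± 0.12 (0.07 to 0.60), which missed the threshold after adjustment (edgeR adjusted p = 0.0756). This value passed in 6 of 20 alternatives, among them without KO replicate 3 (0.43, edgeR adjusted p = 0.0451) and without OE replicate 2 (0.33, edgeR adjusted p = 0.0362). It was weaker without KO replicate 1 (0.26, edgeR adjusted p = 0.239) or WT replicate 3 (0.24, edgeR adjusted p = 0.237). Libraries labelled OE and KO overlapped, and their difference of 0.20 ± 0.12 did not pass (-0.07 to 0.46, edgeR adjusted p = 0.226).

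CYB5A (ENSG00000166347, chromosome 18, 74250846 to 74291973, minus strand) had 57.4, 66.4 and 50.1 CPM in libraries labelled OE, 50.2, 46.0 and 49.9 CPM in KO and 40.4, 44.3 and 34.0 CPM in WT. The order of the group means was the same as for POR, with the libraries labelled OE highest and WT lowest, and neither KO nor the OE-labelled group overlapped WT. CYB5A was 1.46-fold higher in libraries labelled OE than in WT (0.55 ± 0.15, 95% interval 0.24 to 0.86, edgeR adjusted p = 0.0162). The call was lost without WT replicate 1 (0.57, edgeR adjusted p = 0.0556), without WT replicate 3 (0.45, edgeR adjusted p = 0.0928) and without OE replicate 2 (0.46, edgeR adjusted p = 0.0542). For KO against WT the log2 fold change was 0.30 ± 0.15 (-0.01 to 0.61, edgeR adjusted p = 0.179), and for libraries labelled OE against KO it was 0.25 ± 0.15 (-0.06 to 0.56, edgeR adjusted p = 0.193).

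Ratios of counts within a library do not depend on how libraries are scaled, and they set the partners of CYP17A1 against the enzyme itself. The ratio of CYB5A to CYP17A1 counts was 0.976, 1.2 and 0.779 in libraries labelled OE, 0.783, 0.821 and 0.885 in KO and 0.576, 0.669 and 0.502 in WT. The ratio of POR to CYP17A1 counts was 12.6, 16.3 and 11.3 in libraries labelled OE, 11.9, 12.6 and 10.6 in KO and 8.37, 8.73 and 7.07 in WT. Every library of the KO and OE-labelled groups thus had more CYB5A and more POR counts per CYP17A1 count than any WT library. The log2 ratio of CYB5A to CYP17A1 was higher than in WT by 0.75 in libraries labelled OE and by 0.52 in KO, and that of POR to CYP17A1 by 0.72 and 0.54. Each of these 4 differences had an exact two-sided permutation p of 0.1, the smallest that 3 against 3 libraries allow, and 0.15 after Benjamini-Hochberg adjustment over 15 comparisons of ratios. Libraries labelled OE and KO overlapped in both ratios (exact permutation p = 0.4 and 0.5).

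HSD3B2 and CYP17A1 both act on pregnenolone, and the ratio of their counts does not measure cortisol or androgen output. The ratio of HSD3B2 to CYP17A1 counts was 1.80, 1.73 and 1.66 in libraries labelled OE, 0.392, 0.401 and 0.506 in KO and 0.188, 0.223 and 0.201 in WT. The 3 groups did not overlap, and the order was libraries labelled OE, then KO, then WT. The log2 ratio was higher by 3.09 in libraries labelled OE and by 1.08 in KO, each against WT, and by 2.01 in libraries labelled OE against KO (exact permutation p = 0.1 for each, the smallest possible). CYP17A1 itself passed the test in no comparison, and HSD3B2 had 105.7, 96.0 and 106.8 CPM in libraries labelled OE, 25.1, 22.5 and 28.6 CPM in KO and 13.1, 14.7 and 13.6 CPM in WT. Of its 50-base sequence words, 4.28% occur in other genes, HSD3B1 among them, so few of its reads could be lost to multiple mapping.

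**Figure D2:**
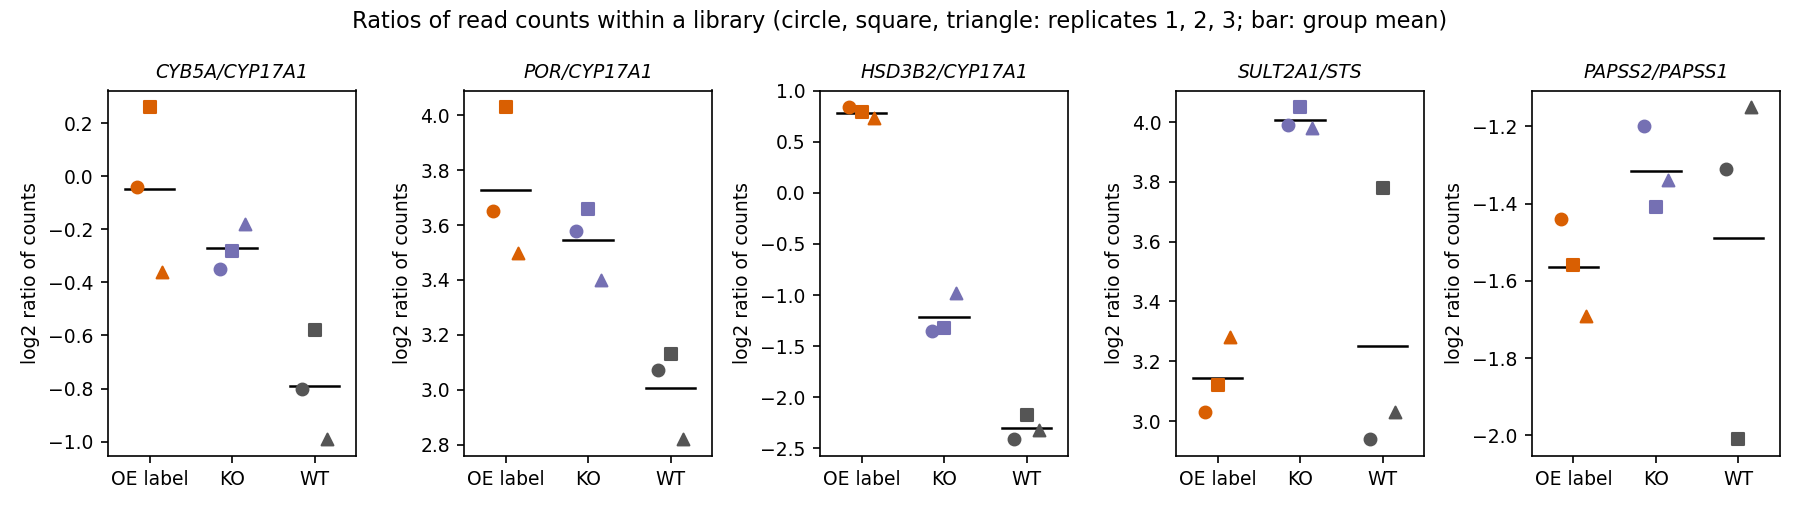
Log2 ratio of the read counts of 5 pairs of genes within each library (y axis, not corrected for gene length), for libraries labelled OE, KO and WT; symbols are replicates 1 to 3 and bars are group means. For CYB5A, POR and HSD3B2 over CYP17A1 all WT libraries lie below all others, while for SULT2A1 over STS the KO libraries lie at the top, from 3.98 to 4.05.

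SULT2A1 (ENSG00000105398, chromosome 19, 47870467 to 47886315, minus strand), whose promoter window is given above, had 159.9, 148.4 and 161.9 CPM in libraries labelled OE, 356.3, 346.5 and 375.1 CPM in KO and 161.5, 187.4 and 187.6 CPM in WT. Every KO library was above every other library, and the libraries labelled OE overlapped the WT libraries at WT replicate 1. The level was 2.01-fold higher in KO than in WT (log2 fold change 1.01 ± 0.11, 95% interval 0.78 to 1.23, edgeR adjusted p = 6.09e-06), and it passed in all 20 alternatives run, between 0.94 and 1.10. In libraries labelled OE against KO the log2 fold change was -1.20 ± 0.11 (-1.43 to -0.97, edgeR adjusted p = 7.26e-07), and it too passed in all 20 alternatives. In libraries labelled OE against WT it was -0.19 ± 0.11 (-0.42 to 0.04, edgeR adjusted p = 0.224). That value passed with a correction for gene length (-0.41, edgeR adjusted p = 0.0212).

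SULT2A1 is a short gene model of 1904 nucleotides, and counts in the libraries labelled OE varied with gene length. Over 5 groups of tested genes, equal in size and ordered by length, the median log2 fold change of libraries labelled OE against WT was 0.24, 0.11, 0.01, -0.12 and -0.29, and for KO against WT it was -0.10, -0.05, 0.00, 0.03 and 0.09, with the shortest genes first in each. SULT2A1 lay among the shortest genes, and its KO against WT difference was 1.10 with the correction. POR, at 6042 nucleotides, and CYB5A, at 9271, lay in the next-to-longest and the longest group, where the median gene was lower under the OE label than in WT. Their differences in libraries labelled OE against WT were 0.60 and 0.78 with the correction (edgeR adjusted p = 0.00235 and 0.00261). The same correction brought CYB5A past the threshold in libraries labelled OE against KO (0.56, edgeR adjusted p = 0.00947).

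PAPSS2 (ENSG00000198682, chromosome 10, 87659613 to 87747705, plus strand), a maker of the sulfate donor PAPS, had 22.1, 15.5 and 19.2 CPM in libraries labelled OE, 23.2, 18.6 and 23.4 CPM in KO and 18.4, 13.1 and 19.8 CPM in WT. The 3 groups overlapped, with replicate 2 lowest in each. The log2 fold change was 0.34 ± 0.19 in KO against WT (-0.06 to 0.75, edgeR adjusted p = 0.245), 0.15 ± 0.20 in libraries labelled OE against WT (-0.26 to 0.56, edgeR adjusted p = 0.631) and -0.20 ± 0.19 in libraries labelled OE against KO (-0.60 to 0.21, edgeR adjusted p = 0.445). PAPSS1, its paralogue, had 59.9, 45.8 and 61.9 CPM in libraries labelled OE, 53.6, 49.4 and 59.3 CPM in KO and 45.9, 52.9 and 43.9 CPM in WT, and it also passed in no comparison (edgeR adjusted p = 0.282 to 0.822). The ratio of PAPSS2 to PAPSS1 counts was 0.311 to 0.369 in libraries labelled OE, 0.377 to 0.434 in KO and 0.248 to 0.451 in WT. The libraries labelled OE lay below KO in this ratio (log2 difference -0.25, exact permutation p = 0.1), and both groups overlapped WT, whose replicate 2 had the lowest ratio of all. SULT2A1 was thus higher in KO with no called difference in either gene that makes its cosubstrate, although the intervals for PAPSS2 allow a difference of up to 0.75.

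STS (ENSG00000101846, chromosome X, 7147237 to 7804358, plus strand), the sulfatase that returns DHEA sulfate to DHEA, had 19.5, 17 and 16.6 CPM in libraries labelled OE, 22.4, 20.9 and 23.7 CPM in KO and 21.0, 13.6 and 22.9 CPM in WT. The libraries labelled OE lay below all KO libraries, and WT spanned both groups because its replicate 2 was the lowest library of the 9. Groups that do not overlap were found for 2 of the 7 genes in libraries labelled OE against KO, against 51.7% of all genes. The log2 fold change was -0.34 ± 0.19 in that comparison (-0.73 to 0.06, edgeR adjusted p = 0.171), 0.22 ± 0.19 in KO against WT (-0.18 to 0.62, edgeR adjusted p = 0.476) and -0.12 ± 0.19 in libraries labelled OE against WT (-0.52 to 0.29, edgeR adjusted p = 0.709). At 12342 nucleotides STS was among the longest genes, and its values for the libraries labelled OE turned sign with the correction for length (0.22 against WT and 0.10 against KO).

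The ratio of SULT2A1 to STS counts sets sulfation against removal of the sulfate at the level of RNA. It was 8.19, 8.69 and 9.70 in libraries labelled OE, 15.8, 16.6 and 15.8 in KO and 7.66, 13.8 and 8.18 in WT. KO was above all other libraries, and WT replicate 2 stood nearer to KO than to its own group. The log2 ratio differed by 0.76 in KO against WT and by -0.86 in libraries labelled OE against KO (exact permutation p = 0.1 each, the smallest possible), and by -0.11 in libraries labelled OE against WT (exact permutation p = 1.0). Without WT replicate 2 this last value was 0.16, so its sign, with no correction for length, rests on that library. SULT2A1 was among the shortest genes and STS among the longest, and these ratios were not corrected for length. With that correction the log2 fold changes in libraries labelled OE against WT were -0.41 for SULT2A1 and 0.22 for STS.

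AKR1C3 (ENSG00000196139, chromosome 10, 5035354 to 5107686, plus strand), a 17-ketosteroid reductase, had 72.7, 111.1 and 73.8 CPM in libraries labelled OE, 85.4, 79.2 and 67.6 CPM in KO and 65.9, 82.4 and 56.0 CPM in WT. The groups overlapped, and replicate 2 was the highest library of both the OE-labelled and the WT group. The log2 fold change was 0.18 ± 0.18 in KO against WT (-0.19 to 0.56, edgeR adjusted p = 0.531), 0.33 ± 0.18 in libraries labelled OE against WT (-0.04 to 0.71, edgeR adjusted p = 0.198) and 0.15 ± 0.18 in libraries labelled OE against KO (-0.23 to 0.52, edgeR adjusted p = 0.540). Without OE replicate 2 the last value was -0.06. AKR1C3 shares 4.53% of its 50-base words with other genes, among them AKR1C1, AKR1C2 and AKR1C4, so most of its sequence tells it apart from them.

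**Figure D3:**
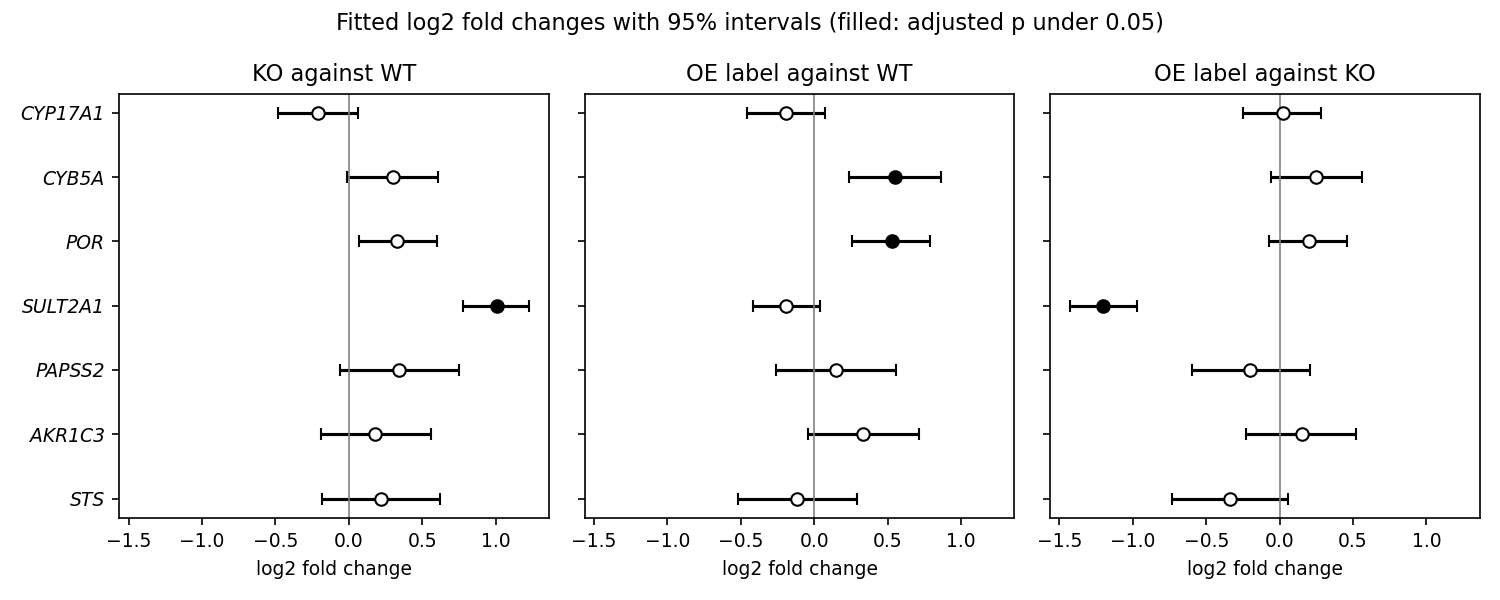
Fitted log2 fold changes (x axis) with 95% intervals for the 7 genes in the comparisons of KO with WT, libraries labelled OE with WT and libraries labelled OE with KO; filled points have an edgeR adjusted p under 0.05. SULT2A1 is the filled point at 1.01 on the left and -1.20 on the right, and POR and CYB5A are the filled points in the middle panel at 0.53 and 0.55.

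Levels of different genes were compared as CPM per kilobase of the gene length in the count files. In WT, SULT2A1 (93.9 ± 7.90, SD, n = 3) and POR (90.8 ± 9.85) were the highest and overlapped, followed by CYP17A1 (20.1 ± 0.586) and AKR1C3 (17.4 ± 3.41), which also overlapped. CYB5A (4.27 ± 0.556) and PAPSS2 (4.19 ± 0.868) overlapped below them on this length, and STS (1.55 ± 0.400) was the lowest. In libraries labelled OE, POR led with 131 ± 16.4 CPM per kilobase, then SULT2A1 with 82.3 ± 3.82, AKR1C3 with 22.0 ± 5.58 and CYP17A1 with 17.6 ± 1.34, and AKR1C3 and CYP17A1 overlapped. In KO the first places were exchanged, with SULT2A1 at 189 ± 7.62 and POR at 114 ± 14 CPM per kilobase, and the libraries of these genes did not overlap. AKR1C3 at 19.8 ± 2.31 and CYP17A1 at 17.4 ± 1.34 overlapped in KO as well. CYB5A was at 6.25 ± 0.878 CPM per kilobase in libraries labelled OE and 5.26 ± 0.253 in KO, close to PAPSS2 at 4.64 ± 0.811 and 5.33 ± 0.672, and STS was the lowest in both groups, at 1.43 ± 0.124 and 1.81 ± 0.117. These orders depend on the length used, and lengths of the principal transcript were an alternative chosen after seeing the data. Per kilobase of the principal transcript, POR was above SULT2A1 in all 3 groups, at 314 against 78.9 in libraries labelled OE, 274 against 181 in KO and 217 against 90.0 in WT. On that length CYB5A no longer overlapped PAPSS2, at 17.7 against 4.79 in libraries labelled OE, 14.8 against 5.51 in KO and 12 against 4.33 in WT. AKR1C3 (37.7 ± 7.38) and CYP17A1 (36.4 ± 1.06) still overlapped in WT, in the other order. Of the 1870 bases of the CYP17A1 principal transcript, 611 (32.7%) are shared with WBP1L. Reads there were not counted, so the overlap and order of CYP17A1 and AKR1C3 are uncertain on either length. Over the 1967 exon bases of CYP17A1 that no other gene shares, which reach beyond the principal transcript, its level was 30.2 in libraries labelled OE, 29.9 in KO and 34.6 CPM per kilobase in WT.

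The chromosomal surroundings of SULT2A1, POR and CYB5A were compared with these genes where they passed against WT. Among the 50 tested genes nearest to SULT2A1, the median log2 fold change in KO against WT was 0.01, with 2 higher and 5 lower. Around POR the median was -0.05 in libraries labelled OE against WT, and around CYB5A, with 45 neighbours, it was -0.09. For all 7 genes the median of the neighbours in KO against WT lay between -0.06 and 0.12.

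The genes with the pattern over the 9 libraries most like that of each called gene were found by the root mean square difference of centred log2 CPM, among 10906 genes with a mean of at least 5 CPM. For SULT2A1 they were GPD1L and SV2B (0.09 each) and CENPL (0.10). GPD1L had 174.2 ± 19.8 CPM in libraries labelled OE, 377.1 ± 33.5 CPM in KO and 190.7 ± 5.13 CPM in WT (SD, n = 3). The likeness of these genes is the criterion they were chosen by. For POR they were STARD3 and RPIA (0.05 each) and NCLN (0.06), and for CYB5A they were TMEM14B (0.07), LARP6 and WDR77 (0.08 each). The same genes came first with the median-ratio scaling of DESeq2.

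Around these 7 genes, 7 lists of related genes were described by their counts and medians. Of all genes tested, 9.16% were higher and 9.60% lower in KO than in WT, and 9.65% and 11% in libraries labelled OE than in WT. Among 10 tested of 14 genes for cholesterol uptake, cholesterol side-chain cleavage and the other steroid branches, 5 were higher and 0 lower in KO than in WT (median log2 fold change 0.37), and 6 were higher and 0 lower in libraries labelled OE than in WT (median 0.62). STAR, which moves cholesterol into mitochondria, had 393.2, 393.7 and 373.5 CPM in libraries labelled OE, 602.8, 537.2 and 489.5 CPM in KO and 314.2, 339.3 and 300.5 CPM in WT. SCARB1, the receptor for high-density lipoprotein, was higher in both KO (0.73 ± 0.11, edgeR adjusted p = 0.000201) and libraries labelled OE (0.83 ± 0.11, edgeR adjusted p = 0.000252) than in WT. FDXR, which feeds electrons to the mitochondrial P450 enzymes as POR does to those of the endoplasmic reticulum, was higher in libraries labelled OE than in WT (0.70 ± 0.16, edgeR adjusted p = 0.00751). CYP21A2, the 21-hydroxylase and another POR client, was higher by 1.66 ± 0.13 there (edgeR adjusted p = 2.06e-06), though 40.6% of its 50-base words occur in other genes and its level is uncertain. CYP11B1 had 0.22, 0.553 and 0.188 CPM in libraries labelled OE, 1.75, 2.16 and 1.60 CPM in KO and 0, 0 and 0.230 CPM in WT, too few counts in WT for a fold.

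Among 15 tested of 26 genes that convert androgens further, 3 were higher and 3 lower in KO than in WT (median -0.01), and 3 higher and 1 lower in libraries labelled OE than in WT (median 0.12). CYP19A1, aromatase, which turns androgens into oestrogens with electrons from POR, had 44.9, 40.4 and 45.3 CPM in libraries labelled OE, 248.1, 238.3 and 286.5 CPM in KO and 18.9, 21.6 and 23 CPM in WT. It was 12.2-fold higher in KO than in WT (3.6 ± 0.14, edgeR adjusted p = 8.65e-11) and 2.06-fold higher in libraries labelled OE than in WT (1.04 ± 0.13, edgeR adjusted p = 0.000195). The genes around it also moved in KO, unlike those around SULT2A1: the median of 50 neighbours was 0.39 against WT, with 17 higher and 4 lower, and the part of this in the CYP19A1 difference was not tested. Of the 5α-reductases, SRD5A1 was higher in KO than in WT (0.60 ± 0.16, edgeR adjusted p = 0.0146), a call lost without WT replicate 2 or KO replicate 2, and SRD5A3, which also acts on polyprenol, was lower (-1.15 ± 0.23, edgeR adjusted p = 0.00171). AKR1C2, a 3-ketosteroid reductase, was higher in KO than in WT (1.08 ± 0.24, edgeR adjusted p = 0.00376), but 38.9% of its 50-base words are shared with AKR1C1, AKR1C3 and AKR1C4. HSD17B10, a mitochondrial dehydrogenase, was higher in libraries labelled OE than in WT (0.74 ± 0.16, edgeR adjusted p = 0.00558, and 0.48 with the correction for length). H6PD, which supplies NADPH inside the endoplasmic reticulum, was lower there (-0.76 ± 0.15, edgeR adjusted p = 0.00336). At 9322 nucleotides H6PD was among the longest genes, whose median was -0.29 in this comparison. Its value ran from -0.88 to -0.51 over the 20 alternatives. HSD17B3 and SRD5A2, which make testosterone and dihydrotestosterone in other tissues, had 0 counts in all 9 libraries, as did UGT2B7, UGT2B15 and UGT2B17, which glucuronidate steroids.

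Among 13 tested of 21 genes for other sulfotransferases and the supply of PAPS, 2 were higher and 0 lower in KO than in WT (median 0.00), and 2 higher and 1 lower in libraries labelled OE than in WT (median 0.11). BPNT2, a phosphatase that clears the product left from PAPS in the Golgi, was higher in KO than in WT (0.42 ± 0.11, edgeR adjusted p = 0.0134), a call lost without WT replicate 1 or KO replicate 3. SLC26A1, a sulfate carrier, was lower in libraries labelled OE than in WT (-1.61 ± 0.37, edgeR adjusted p = 0.00729), from a WT level of 3.17 ± 0.774 CPM. SULT1E1, the oestrogen sulfotransferase, had 3 counts in libraries labelled OE and 0 in the others. Among 13 tested of 16 other sulfatases and their activators, 0 were higher and 3 lower in KO than in WT (median 0.02), and 0 higher and 4 lower in libraries labelled OE than in WT (median -0.29). In that last comparison the median of all genes was -0.12 in the next-to-longest and -0.29 in the longest group by length. The part of length in this list was not tested. Of the 4 calls, that of GALNS was lost with the correction for length. SULF2, which trims sulfate from heparan sulfate outside the cell, was lower in KO (-1.22 ± 0.16, edgeR adjusted p = 4.73e-05) and in libraries labelled OE (-0.87 ± 0.16, edgeR adjusted p = 0.00176) than in WT. SUMF2, a paralogue of the factor that activates sulfatases such as STS, was lower in KO than in WT (-0.89 ± 0.13, edgeR adjusted p = 0.000132).

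Among 19 tested of 21 other P450 enzymes, cytochrome b5 proteins and their partners, 3 were higher and 2 lower in KO than in WT (median 0.03), and 2 higher and 1 lower in libraries labelled OE than in WT (median 0.05). CYB5B, the cytochrome b5 of the outer mitochondrial membrane, had 665.5, 660.4 and 645.9 CPM in libraries labelled OE, 563.5, 507.4 and 543.0 CPM in KO and 469.7, 534.7 and 486.2 CPM in WT. It was higher in libraries labelled OE than in WT (0.40 ± 0.10, edgeR adjusted p = 0.0100), a call lost without WT replicate 1. CYB5R1, of the cytochrome b5 reductase family, was also higher there (0.57 ± 0.14, edgeR adjusted p = 0.00991), a call lost without WT replicate 1 or WT replicate 3. PGRMC1, a haem protein that binds P450 enzymes, was higher in KO than in WT (0.59 ± 0.11, edgeR adjusted p = 0.000866). The cholesterol synthesis enzymes that take electrons from POR moved in opposite directions in KO against WT, with CYP51A1 higher (1.29 ± 0.27, edgeR adjusted p = 0.00229) and SQLE lower (-1.42 ± 0.14, edgeR adjusted p = 3.65e-06). Among 5 tested of 10 transporters that carry steroid sulfates, 0 were higher and 1 lower in each comparison with WT (median -0.28 for KO and -0.53 for libraries labelled OE). ABCC1, an exporter of conjugates, was lower in libraries labelled OE (-0.87 ± 0.18, edgeR adjusted p = 0.00392), and ABCC4, an exporter of DHEA sulfate, was lower in KO (-2.01 ± 0.47, edgeR adjusted p = 0.00637), from a level of 2.49, 4.52 and 3.80 CPM in WT.

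Among 21 tested of 24 regulators of steroidogenic genes, 3 were higher and 2 lower in KO than in WT (median 0.16), and 1 higher and 4 lower in libraries labelled OE than in WT (median -0.18). NR5A1, the steroidogenic factor whose motif was searched in the promoters, had 685.2, 849.0 and 710.7 CPM in libraries labelled OE, 983.1, 937.5 and 807.1 CPM in KO and 838.4, 729.7 and 735.9 CPM in WT, and passed in no comparison with WT. GATA6 had 21.5, 15.1 and 15.4 CPM in libraries labelled OE, 20.4, 18.6 and 20 CPM in KO and 21.4, 15.9 and 19.0 CPM in WT, and passed in no comparison with WT either. NR5A1 and GATA6 are singled out here for their link to the motifs, after their values were seen. NR0B1, a repressor of NR5A1 activity, was higher in KO than in WT (1.68 ± 0.24, edgeR adjusted p = 0.00011). The orphan receptor NR4A3 was lower in KO than in WT (-0.89 ± 0.18, edgeR adjusted p = 0.00174). SREBF1, a regulator of lipid synthesis, was lower in KO (-1.79 ± 0.19, edgeR adjusted p = 6.03e-06) and in libraries labelled OE (-1.41 ± 0.19, edgeR adjusted p = 0.000252) than in WT.

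**Figure D4:**
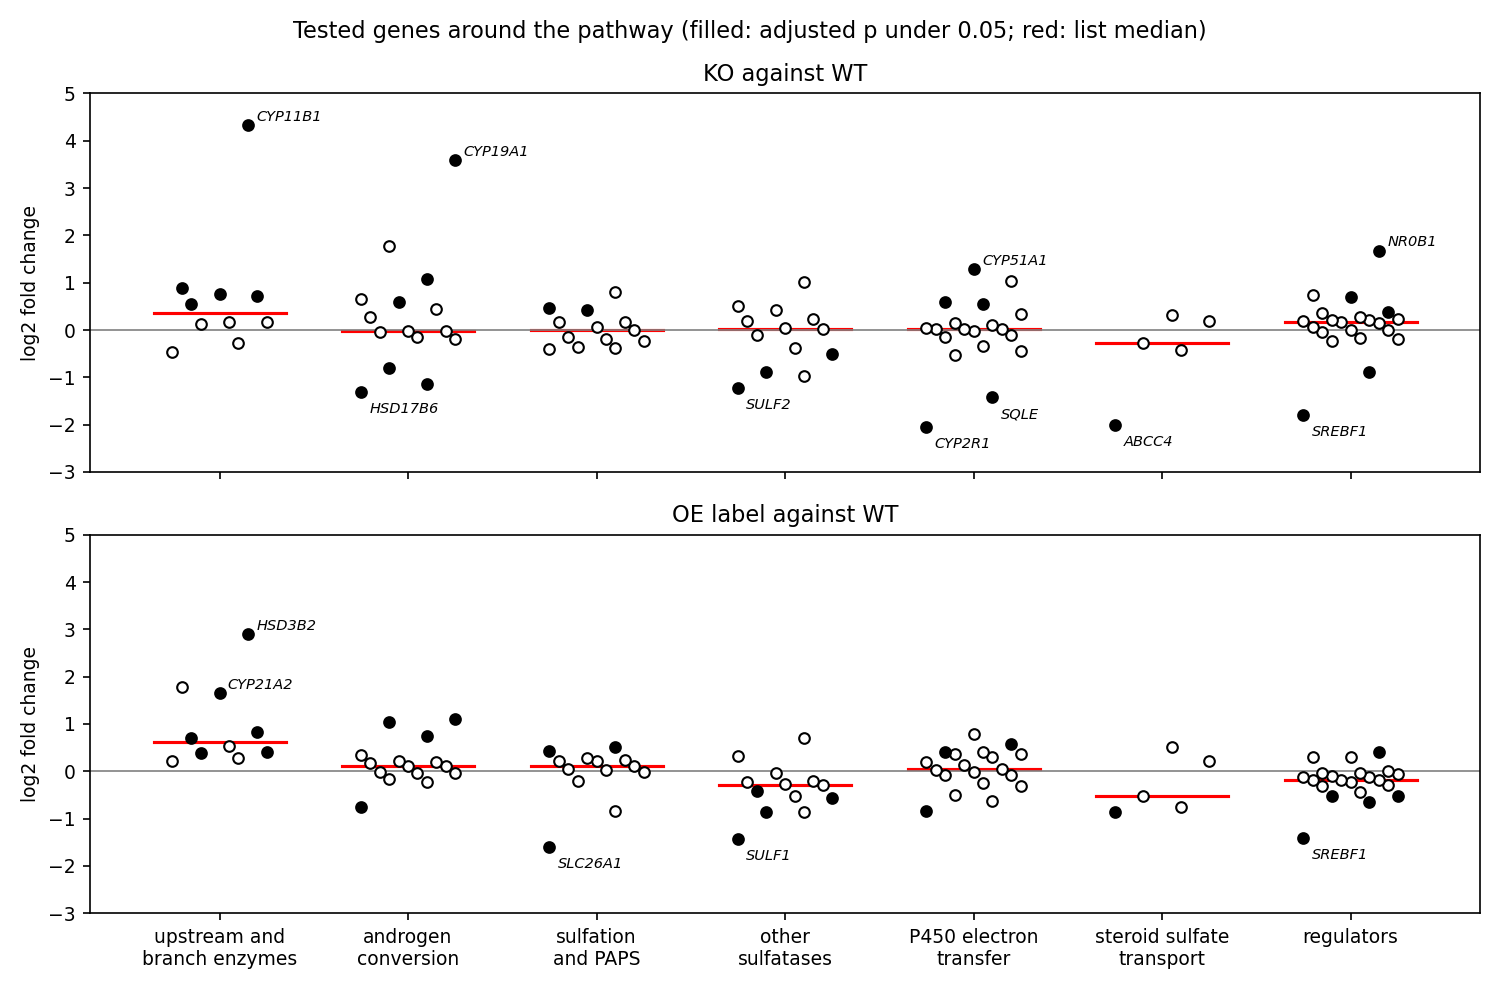
Log2 fold changes (y axis) of the tested genes in 7 lists around the pathway, for KO against WT (upper panel) and libraries labelled OE against WT (lower panel); each point is a gene, filled where the edgeR adjusted p was under 0.05, red bars are list medians, and the called genes farthest from 0 are named (the fitted value of CYP11B1 rests on 2 counts in WT and is no bound). Called genes of the first list lie above 0 in both panels, with CYP19A1 at 3.6 in the second list of the upper panel and HSD3B2 at 2.90 in the first list of the lower panel.

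In libraries labelled OE against KO, where SULT2A1 was lower, CYP19A1 was lower as well (-2.56 ± 0.13, edgeR adjusted p = 1.34e-09) and HSD3B2 higher (2.02 ± 0.14, edgeR adjusted p = 5.02e-08). Of the first list 3 genes were higher and 2 lower, of the androgen conversion list 3 and 6, and of the sulfation list 3 and 1. SLC35B2, which carries PAPS into the Golgi, was higher (0.60 ± 0.14, edgeR adjusted p = 0.00243, and 0.33 with the correction for length) and SLC26A1 lower (-2.42 ± 0.36, edgeR adjusted p = 7.69e-05) in libraries labelled OE than in KO. Of the sulfatase list 1 gene was higher and 2 lower, of the P450 and electron transfer list 7 and 5, of the transporter list 1 and 2, and of the regulator list 1 and 8. In the order named, the lists had 10, 15, 13, 13, 19, 5 and 21 tested genes. Of all genes tested, 19% were higher and 20.6% lower in this comparison. NR0B1 (-1.37 ± 0.24, edgeR adjusted p = 0.000295) and NR4A1 (-0.89 ± 0.16, edgeR adjusted p = 0.000378) were lower in libraries labelled OE than in KO.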

How the data were processed

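Each library has 1 file deposited by the authors, which gives unscaled whole-number counts of reads for every gene. Per the file headers, counts were made with featureCounts 1.5.2 on Ensembl release 101 of GRCh38, with no strand, paired or multiple-mapping option on the command line, a setting under which reads with several mapping places or several genes are not counted. The submitters' processing notes name FastQC, HISAT2 1.03, Subread, featureCounts 0.1.0 and DESeq2. The series' design calls replicates biological. No label says that they were separate cultures, so the p-values cover only the spread among these 9 libraries, which may be technical.

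From the deposited counts, edgeR 4.0.16 in R 4.3.3 gave TMM scaling, a filter (filterByExpr, minimum count 10) and a quasi-likelihood F test with all 9 libraries and a term for the group, with 6 residual degrees of freedom. Adjustment was by Benjamini-Hochberg over 14150 genes, with 0.05 as threshold, and every adjusted p is from this test unless another tool is named. Errors of fold changes are standard errors (median 0.187), and intervals are 95%. Ratios used a pseudocount of 0.5 and exact permutation tests (scipy 1.17.1). Limma 3.58.1 and DESeq2 1.42.0 were alternatives. Exon overlaps come from the file coordinates, and 50-base words and principal transcripts from GENCODE transcripts. Motifs were searched in the RefSeq windows on both strands.

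The 7 genes and the lists were chosen with earlier results of these data known. The text names all 7, SGPL1, pair partners and the 3 genes most like each called one. Of the up to 4 called genes per list and comparison that the rule takes by smallest adjusted p, a part is named, chosen for roles close to the 7 genes after their values were seen, as were genes with 0 or very few counts. The SULT2A1 promoter window was shown in addition to that of CYB5A, whose gene moved together with POR. By chi-square, libraries of a group differed by more than sampling noise. Same-number deviations correlated by -0.138 to 0.246 and different-number deviations by -0.281 to 0.224, which does not settle whether replicate numbers pair the libraries. A gene that this rule takes is not reported here.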

Additional observations from a re-analysis of the deposited data

How the results depend on the processing

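Of 420 recomputed fold changes of the 7 genes under 20 alternatives, 393 kept direction and side of the threshold, 11 came to pass, 3 no longer passed and 13 changed sign. In KO against WT, 2 genes were higher with no filter, with the replicate block, with the block and length correction together, and with WT 2 and OE 2 both left out, since POR then passed (0.35, 0.33, 0.31 and 0.37). Leaving out each library gave 1 to 2 higher genes and 0.24 to 0.43 for POR. In libraries labelled OE against WT, leaving out each library gave 1 to 2 higher genes and 0.45 to 0.65 for CYB5A. With the length correction 1 gene was lower, SULT2A1 at -0.41, and with block and length correction also 1, at -0.42. STS was 0.22 under each, and -0.30 to 0.03 without each library. SGPL1 was 0.00 with upper-quartile scaling, 0.01 with no filter, 0.14 with the length correction, with or without the block, 0.01 without WT 2 and OE 2, and -0.08 to 0.09 without each library.

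In libraries labelled OE against KO, 1 gene was higher with the length correction (CYB5A, 0.56) and 2 with block and length correction (CYB5A, 0.54, and POR, 0.29). CYP17A1 was -0.05 with library totals, -0.14 and -0.15 with the length correction without and with the block, and -0.04 to 0.09 without each library. STS was 0.10 and 0.09 under those corrections. AKR1C3 was -0.06 without WT 2 and OE 2, and -0.06 to 0.25 without each library. PAPSS1 was -0.01 with library totals, -0.12 and -0.13 with the corrections, and -0.03 to 0.19 without each library. Without WT 2 and OE 2, the SULT2A1 to STS log2 ratio in libraries labelled OE against WT was 0.17 and PAPSS2 to PAPSS1 in KO against WT was -0.08. Leaving out each library gave -0.26 to 0.16 and -0.08 to 0.35, and -0.33 to 0.10 for PAPSS2 to PAPSS1 in libraries labelled OE against WT. The cause of these changes was not tested.

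Whether replicate numbers pair the libraries is not settled. The replicate block raised the genes called in KO against WT to 1622 higher and 1613 lower, against 1296 and 1359 without it. Calls over all genes changed by over 1.5 times without WT replicate 1 (557 higher and 824 lower), WT replicate 3 (485 and 759) and OE replicate 2 (817 and 1032) in libraries labelled OE against WT, where they were 1365 and 1559 with all libraries. In KO against WT they were 879 and 885 without KO replicate 2. With library totals there were 765 higher and 2190 lower in libraries labelled OE against WT. At 107 to 222 counts per library, PAPSS2 and STS had standard errors of 0.19 to 0.20, and neither PAPSS2 at 0.34 in KO against WT nor STS at -0.34 in libraries labelled OE against KO passed.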
